A study of Arabidopsis thaliana with 12 samples.

Results

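The 8 genes described here, AT5G39100, AT5G39110, AT5G39120, AT5G39130, AT5G39150, AT5G39160, AT5G39180 and AT5G39190, are the germin-like genes of a tandem cluster on chromosome 5 of Arabidopsis thaliana. They were taken by locus number, 8 of 64791 features in the table, and were chosen by their RPKM in pkl and WT, several of them being low in pkl, so the pkl values are given below as a description without a test. RNA was measured by poly(A) mRNA-seq in 2-week-old whole seedlings of 4 genotypes with 3 biological replicates each: pkl (allele pkl-1), nrpd1 (allele nrpd1-3), nrpe1 (allele nrpe1-11) and wild type (WT), all grown on plates under the same conditions without further treatment. PKL encodes a CHD3-type chromatin remodeler, and NRPD1 and NRPE1 code for the main catalytic subunits of the plant polymerases IV and V, which act in RNA-directed DNA methylation (RdDM). Each mutant is represented by a single allele, and levels are averages over all organs of a seedling, in which fewer cells of a type and less RNA per cell cannot be told apart.

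Germin-like proteins are small secreted proteins of the cupin fold, found mostly in the cell wall and named after germin, the oxalate oxidase of germinating wheat. Arabidopsis has a large family of them, many in tandem arrays of recent duplicates, and they have been studied in connection with cell wall structure, oxidative stress and defense. The symbols in the annotation are GLP6 (germin-like protein 6) for AT5G39100 and GER2 (germin-like protein 2) for AT5G39190, and the other 6 genes are annotated only as RmlC-like cupins, a name for the fold.

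All 8 genes lie on the minus strand within 40.6 kb, chr5:15653125-15693735 of TAIR10.1 (RefSeq annotation, same chromosome sequence as the TAIR10 build of the deposited table). AT5G39100 starts the array at chr5:15653125-15654028 and AT5G39190 ends it at chr5:15692542-15693735. Each gene has 2 exons and a coding sequence of 666 or 669 bases. By coding sequence they fall into 2 branches. The GER2 branch holds AT5G39190, AT5G39160 and AT5G39130, with 97.61% to 99.85% identity among them, and the GLP6 branch holds AT5G39100, AT5G39110, AT5G39120, AT5G39150 and AT5G39180, with 89.94% to 99.85% identity. Between the branches identity was 78.28% to 79.28%.

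**Figure D1:**
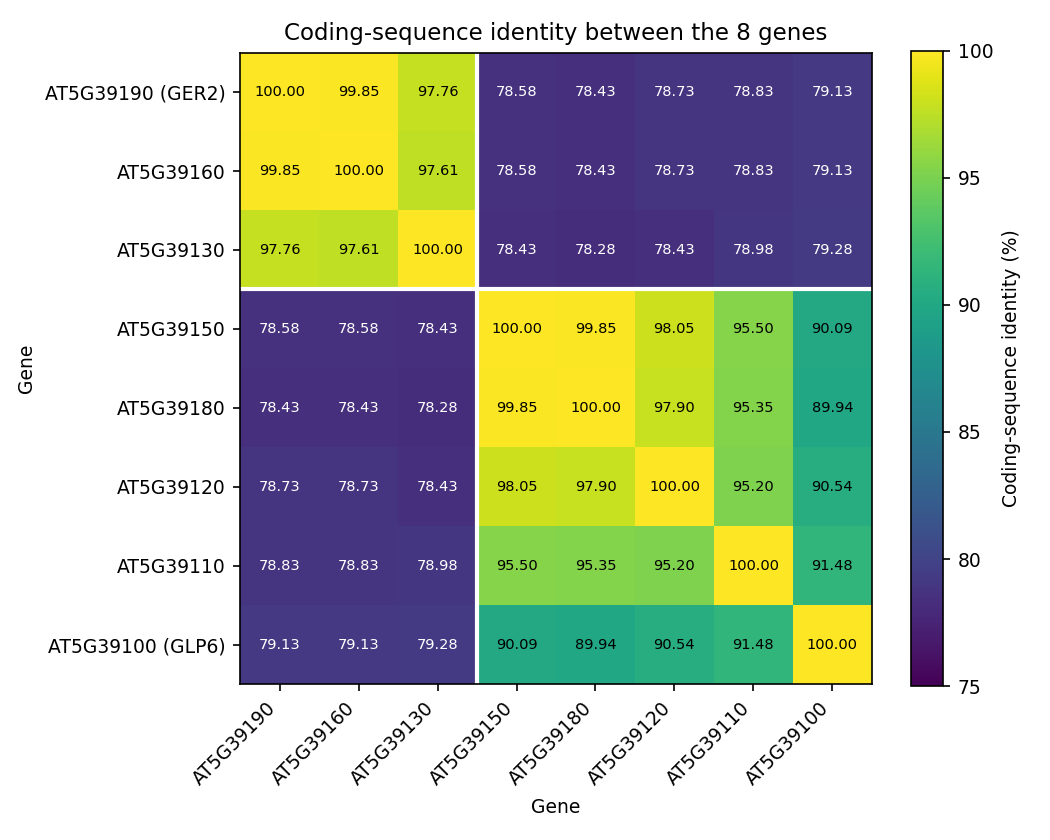
Identity of the coding sequences of the 8 genes in percent of aligned bases, one cell per pair, with white lines between the GER2 branch (upper left) and the GLP6 branch (lower right). AT5G39160 and AT5G39190, and AT5G39150 and AT5G39180, reach 99.85% each, while no pair across the branches exceeds 79.28%.

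Near-identity sets how far reads can be assigned to a gene, so the sequences that tell the copies apart are shown. AT5G39190 and AT5G39160 differ at 1 of 669 coding positions (G196A, AT5G39190 base first, counted from the first base of the start codon). The window of coding bases 151 to 240 around that position reads as follows, with capitals in AT5G39190 where any of the 3 genes differs and in the other genes where they differ from AT5G39190.
AT5G39190: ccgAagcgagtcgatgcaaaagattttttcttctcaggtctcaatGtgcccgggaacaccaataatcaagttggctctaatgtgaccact
AT5G39160: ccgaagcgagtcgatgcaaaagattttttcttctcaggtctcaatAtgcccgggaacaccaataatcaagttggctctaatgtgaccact
AT5G39130: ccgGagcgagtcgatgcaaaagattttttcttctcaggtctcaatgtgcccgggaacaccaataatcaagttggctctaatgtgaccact

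In the GLP6 branch, AT5G39150 and AT5G39180 also differ at 1 coding position (C563T, AT5G39150 base first). The 90 bases around it, from base 518 in AT5G39150, AT5G39180 and AT5G39120 and from base 521 in AT5G39110 and AT5G39100, are given with capitals in AT5G39150 where any of the 5 genes differs and in the others where they differ from AT5G39150.
AT5G39150: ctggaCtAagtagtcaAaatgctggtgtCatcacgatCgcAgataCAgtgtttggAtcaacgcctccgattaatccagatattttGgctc
AT5G39180: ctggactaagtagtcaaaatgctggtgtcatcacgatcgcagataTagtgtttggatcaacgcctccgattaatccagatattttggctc
AT5G39120: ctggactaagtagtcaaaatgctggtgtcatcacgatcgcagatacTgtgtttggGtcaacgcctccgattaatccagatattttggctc
AT5G39110: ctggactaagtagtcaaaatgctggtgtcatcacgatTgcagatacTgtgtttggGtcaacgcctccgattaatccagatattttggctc
AT5G39100: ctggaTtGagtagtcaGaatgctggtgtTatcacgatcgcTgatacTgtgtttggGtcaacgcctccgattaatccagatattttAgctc

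Of the 100-base windows within annotated exons, all occurred at a single place in the genome for AT5G39100, and so did 91.5% for AT5G39110, 85.1% for AT5G39130 and 76.3% for AT5G39120. The lengths over which the deposited values were counted differ from these exons. For AT5G39110 and AT5G39120 they were 669 and 666 bases, as long as the coding sequence, against 822 and 830 exon bases. Windows outside the counted bases thus enter these shares. For AT5G39160 and AT5G39190 the shares were 32.2% and 30.1%, and for AT5G39150 and AT5G39180 they were 26.8% and 26.7%. Values of the last 4 genes are therefore uncertain one by one, and the handling of reads with several positions is not given in the sources used here. Sums over near-identical genes are printed beside them for each mutant and WT.

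The similarity was not limited to the coding sequence. A stretch holding AT5G39130, AT5G39150 and AT5G39160 (chr5:15665505-15681357) matched the next one, holding AT5G39160, AT5G39180 and AT5G39190 (chr5:15679023-15694927), at 99.28% over 15913 aligned bases. Within the 1000 bases before the annotated start of AT5G39190, AT5G39130 matched at 99.7% and AT5G39160 at 99.2%. The last 120 of these bases (chr5:15693736-15693855, minus strand) and their counterparts at AT5G39160 (chr5:15680160-15680279) and AT5G39130 (chr5:15666601-15666720) are shown because the 3 genes had different levels, with capitals at the bases that differ.
AT5G39190: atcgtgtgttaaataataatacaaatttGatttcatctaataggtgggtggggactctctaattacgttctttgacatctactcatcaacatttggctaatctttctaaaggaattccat
AT5G39160: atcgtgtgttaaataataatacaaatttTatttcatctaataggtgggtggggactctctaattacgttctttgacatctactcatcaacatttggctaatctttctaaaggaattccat
AT5G39130: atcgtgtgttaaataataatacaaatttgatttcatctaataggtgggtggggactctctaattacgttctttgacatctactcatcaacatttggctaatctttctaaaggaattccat

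Upstream sequence differed more within the GLP6 branch, apart from the pair AT5G39150 and AT5G39180. Against the 1000 bases before the annotated start of AT5G39150, AT5G39180 matched at 98.62% over 1012 aligned bases. AT5G39100 matched at 74.36% over only 117 aligned bases. Against the 120 bases before the annotated start of AT5G39150 (chr5:15670905-15671024), identity over aligned bases was 92.5% for AT5G39120 (chr5:15663599-15663736) and 82.5% for AT5G39110 (chr5:15658705-15658848). The sequences are given because AT5G39120 and AT5G39110 had low values in nrpd1 (below), with capitals in AT5G39150 where either of the others has another base or none and in the others where they differ from AT5G39150 or carry extra bases.
AT5G39150: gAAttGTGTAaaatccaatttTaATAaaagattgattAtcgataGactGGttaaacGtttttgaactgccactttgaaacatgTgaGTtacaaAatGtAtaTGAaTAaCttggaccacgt
AT5G39120: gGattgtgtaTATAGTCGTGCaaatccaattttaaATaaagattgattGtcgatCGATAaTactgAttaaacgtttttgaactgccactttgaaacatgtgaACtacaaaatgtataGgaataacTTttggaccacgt
AT5G39110: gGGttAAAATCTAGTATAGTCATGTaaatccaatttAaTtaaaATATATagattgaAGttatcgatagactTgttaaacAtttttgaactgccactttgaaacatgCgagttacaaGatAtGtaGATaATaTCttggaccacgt

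A search of the 250 bases before to 50 bases after each annotated start, on both strands, found CATGCA (the RY motif) at 4 of 8 genes (AT5G39100, AT5G39130, AT5G39150 and AT5G39180), against 9.72% of 27444 protein-coding genes. AAACCCTA (the telo box, in 6.22% of genes), GAGAGA (29.2%) and the W boxes TTGACC (14.2%) and TTGACT (21.8%), which share 5 letters, were found at 0 of 8. These matches are letters in a window placed by the annotation, and the windows of AT5G39150 and AT5G39180 are copies of each other.

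The libraries held 15242073 to 21475250 counted reads, except nrpe1 replicate 2 with 7204299, so that a read in a 1 kb gene was worth 0.139 RPKM in that library and 0.0466 to 0.0656 RPKM in the others. As a check of the labels, NRPE1 was at 0.641 ± 0.241 RPKM in nrpe1 against 1.83 ± 0.447 RPKM in WT, NRPD1 at 1.03 ± 0.226 RPKM in nrpd1 against 1.42 ± 0.168 RPKM in WT, and PKL at 22.7 ± 3.48 RPKM in pkl against 18.3 ± 3.63 RPKM in WT (SD, n = 3 each), so PKL RNA gives no check of the pkl label. All 12 root markers and all 6 green tissue markers were above 0 in every genotype.

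In WT seedlings the cluster was weakly expressed and AT5G39190 (GER2) led it. It had 3.77, 3.79 and 4.08 RPKM in the 3 WT libraries (60, 51 and 70 reads), a mean of 45.5% of the summed RPKM of the 8 genes. AT5G39120, AT5G39160 and AT5G39110 followed with means of 1.56 ± 0.241, 1.23 ± 0.473 and 1.10 ± 0.564 RPKM, and their libraries overlapped each other but not those of AT5G39190. The remaining 4 genes averaged 0.0895 to 0.273 RPKM, 12 reads or fewer each over the 3 libraries, and stood below the other 4 genes in all WT libraries, with overlapping ranges between neighbours in that order.

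**Figure D2:**
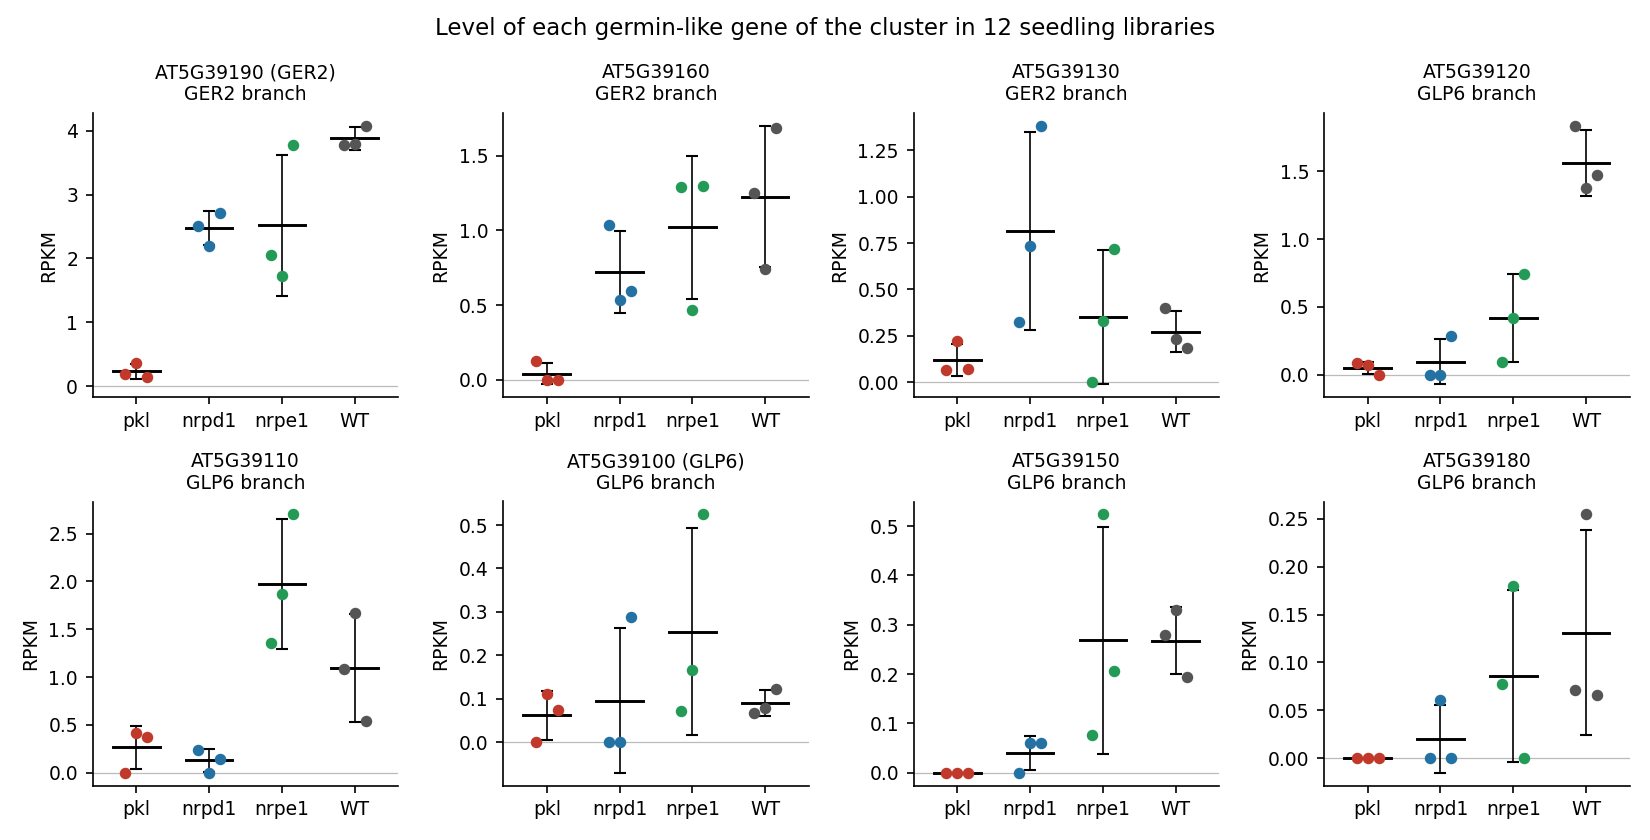
RPKM (reads scaled to gene length and library total) of each of the 8 genes in 12 libraries, 1 point per library in the order replicate 1, 2, 3, with genotype on the horizontal axis, the mean as a horizontal line and the SD as a bar (n = 3). The vertical scale differs between panels. AT5G39190 lies at 0.142 to 0.369 RPKM in pkl, and AT5G39120 and AT5G39110 are low in both pkl and nrpd1.

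In pkl the cluster was at 9.06% of its summed WT level. The summed RPKM of the 8 genes was 0.460, 1.19 and 0.666 in pkl, against 8.75, 8.47 and 8.34 in WT, on 35 and 364 reads in all. Both branches were low in pkl, the GER2 branch at 7.35% and the GLP6 branch at 12.0% of WT.

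AT5G39190 had 0.187, 0.369 and 0.142 RPKM in pkl (3, 7 and 2 reads), against 3.77, 3.79 and 4.08 RPKM in WT, a log2 fold change of -3.64 on the log2(RPKM + 0.1) scale. Fold changes of genes this low depend on the added constant, and this one was -1.99 with 1 and -4.11 with 0.01. AT5G39160 had 0.124, 0 and 0 RPKM in pkl (2, 0 and 0 reads), against 1.25, 0.740 and 1.69 RPKM in WT (20, 10 and 29 reads). Since reads of the pair cannot be separated well, their sum was computed, and it was 0.311, 0.369 and 0.142 RPKM in pkl against 5.02, 4.53 and 5.76 RPKM in WT. Every pkl library lay below every WT library for each gene and for the sum.

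The third gene of the GER2 branch, AT5G39130, had 0.0659, 0.223 and 0.0749 RPKM in pkl, against 0.399, 0.235 and 0.185 RPKM in WT. Its ranges overlapped, on 6 reads in pkl and 12 in WT, so a difference was not detectable at this depth.

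In the GLP6 branch, AT5G39120 had 0.0827, 0.0699 and 0 RPKM in pkl (1, 1 and 0 reads), against 1.83, 1.38 and 1.47 RPKM in WT (22, 14 and 19 reads). AT5G39110 had 0, 0.418 and 0.374 RPKM in pkl (0, 6 and 4 reads), against 1.08, 1.67 and 0.539 RPKM in WT (13, 17 and 7 reads). All pkl libraries lay below all WT libraries, with a log2 fold change of -1.92, which was -1.15 without pkl replicate 1, the library with 0 reads.

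AT5G39150 and AT5G39180 had 0 reads in all pkl libraries. In WT they had 4, 4 and 3 reads, and 1, 3 and 1 reads. Reads of the pair are largely interchangeable, and together the genes had 0 reads in pkl and 16 in WT, too few to size the difference. AT5G39100 (GLP6), the most divergent gene of its branch, had 0, 2 and 1 reads in pkl and 1, 1 and 2 reads in WT, at a depth where no difference could be detected.

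In these pkl libraries the 6 seed markers (CRA1, CRU3, SESA1, OLEO1, OLEO2 and ABI3) summed to 0.052 to 12.5 RPKM, against 0.062 to 0.291 RPKM in WT. In at least 1 library, 6 of 6 were above 0 in pkl and 3 of 6 in WT, but in pkl replicate 2 only CRA1 was. Of these markers 2 were tested, 0 passed the limma threshold used below, and 0 lay above WT without overlap. The 12 root markers summed to 1075 to 1427 RPKM in pkl and 1333 to 1715 RPKM in WT, mostly PYK10, and the other 11 to 79.8 to 85.2 RPKM in pkl and 64.1 to 73.7 RPKM in WT. Of the 12, 0 passed the same threshold. PIN2, COBL9, EXPA7, SCR and WER lay above WT in pkl without overlap, with log2 fold changes of 0.24 (SCR) to 0.57 (EXPA7), and the others overlapped. No share over all features is given for that direction, so their number is not read as a result. The 6 green tissue markers summed to 28438 to 43974 RPKM in pkl and 32435 to 51522 RPKM in WT, with 0 past the threshold. Their part in the low pkl values was not tested. The seed marker sum of 0.052 RPKM was that of pkl replicate 2. The cluster had only 7, 20 and 8 reads in pkl replicates 1, 2 and 3, so these libraries were not ordered by its level.

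In the polymerase IV mutant nrpd1 the 2 branches stood at different levels relative to WT. The GLP6 branch summed to 0.242, 0.121 and 0.781 RPKM in nrpd1, against 3.33, 3.71 and 2.39 RPKM in WT, or 12.1% of WT. The GER2 branch summed to 3.86, 3.46 and 4.69 RPKM in nrpd1, against 5.42, 4.76 and 5.95 RPKM in WT, or 74.5% of WT. The branches and their sums were drawn up from sequence identity after the data had been seen, so they carry no test.

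**Figure D3:**
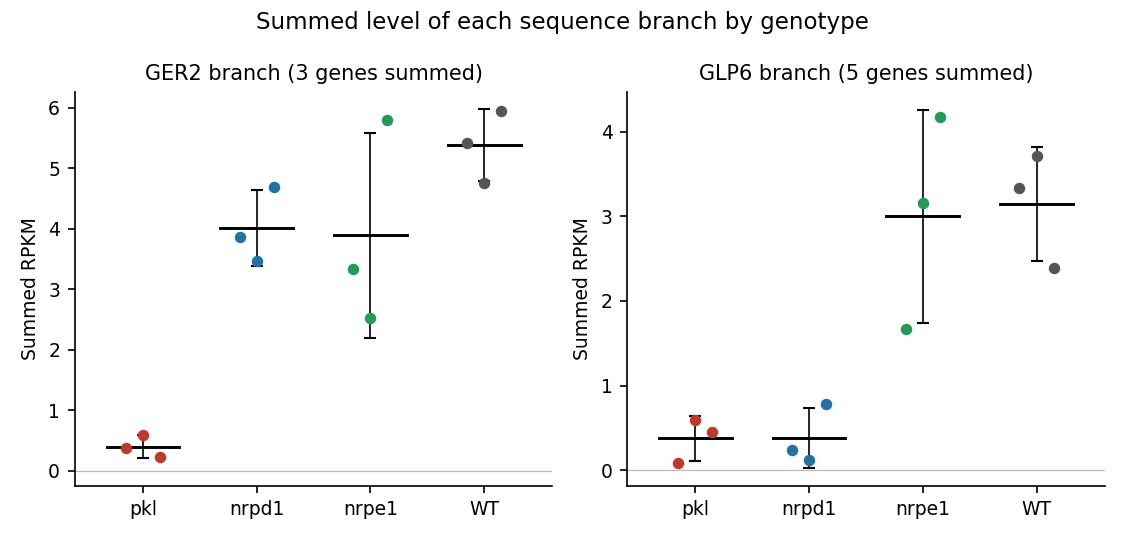
Summed RPKM of the 3 genes of the GER2 branch (left) and the 5 genes of the GLP6 branch (right) in each of 12 libraries (points), by genotype, with means as lines and SD as bars (n = 3). The GER2 branch lies at 0.217 to 0.592 RPKM in pkl and 3.46 to 4.69 RPKM in nrpd1, and the GLP6 branch at 0.0827 to 0.599 RPKM in pkl and 0.121 to 0.781 RPKM in nrpd1.

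The comparisons of nrpd1 and nrpe1 with WT share the WT libraries with the comparison that chose the genes. They were fitted with limma on log2(RPKM + 0.1) over 23669 features, of which 7 of the 8 genes were part, since AT5G39180 did not reach 0.1 RPKM in 3 of 12 libraries. A gene counted as changed at an adjusted p (Benjamini-Hochberg) under 0.05 and a log2 fold change of at least 1 in either direction. In nrpd1, 1 of 7 genes, AT5G39120, passed, against 0.591% of all features in the downward direction, 0 rose, and 3 of 7 had an unadjusted p under 0.05, against 4.61% of all features. AT5G39150 is among these 3. Outside WT it reached 0.1 RPKM only in nrpe1 replicates 2 and 3 (0.524 and 0.207 RPKM), so it was tested only through its WT values.

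AT5G39120 had 0, 0 and 0.289 RPKM in nrpd1 (0, 0 and 4 reads), against 1.83, 1.38 and 1.47 RPKM in WT (22, 14 and 19 reads). It fell by 3.39 on the log2 scale (SE 0.62, limma adjusted p = 0.0255), and all 3 nrpd1 libraries lay below all WT libraries. The call held without nrpd1 replicate 3 (adjusted p = 0.0087). It was lost without nrpd1 replicate 1 (adjusted p = 0.109), nrpd1 replicate 2 (0.120), WT replicate 1 (0.1145), WT replicate 2 (0.0959) or WT replicate 3 (0.103), while the log2 fold change stayed between -4.04 and -3.07 in all 6 such fits. It was also lost with a pseudocount of 0.01 (0.1315), a filter at 1 RPKM (0.0556) or only the 6 libraries of the comparison (0.1253), and was kept by voom on the recovered reads (0.0214).

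AT5G39110 had 0.242, 0 and 0.144 RPKM in nrpd1 (3, 0 and 2 reads), against 1.08, 1.67 and 0.539 RPKM in WT (13, 17 and 7 reads). The ranges did not overlap, but the log2 fold change of -2.44 (SE 0.67, 95% interval -3.93 to -0.95) did not pass the threshold (limma adjusted p = 0.254). AT5G39150 had 0, 1 and 1 reads in nrpd1, against 4, 4 and 3 in WT, with a log2 fold change of -1.41 (95% interval -2.39 to -0.43) that did not pass either. AT5G39180 was not tested and had 0, 1 and 0 reads in nrpd1, against 1, 3 and 1 in WT. Reads of these 3 genes and AT5G39120 are partly interchangeable. Leaving out AT5G39110, they summed to 7 in nrpd1 and 71 in WT, a ratio of 0.0859. AT5G39120 alone had 4 and 55 of these reads. The sum was drawn up after the data had been seen and uses the WT libraries that chose the genes, so it carries no test. AT5G39100 had 0, 0 and 5 reads in nrpd1, against 1, 1 and 2 in WT, with overlap and a log2 fold change of -0.26 (95% interval -1.62 to 1.10).

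In the GER2 branch the differences in nrpd1 were of both signs, and none passed the threshold. AT5G39190 had 2.50, 2.19 and 2.72 RPKM in nrpd1, against 3.77, 3.79 and 4.08 RPKM in WT, a log2 fold change of -0.63 (95% interval -1.31 to 0.04) without overlap between the groups. AT5G39160 had 1.04, 0.534 and 0.597 RPKM in nrpd1, against 1.25, 0.740 and 1.69 RPKM in WT, with overlap. The sum of this pair, given as a description, was 3.54, 2.73 and 3.32 RPKM in nrpd1 against 5.02, 4.53 and 5.76 RPKM in WT. That is 62.6% of WT, without overlap. AT5G39130 went the other way, with 0.323, 0.736 and 1.38 RPKM in nrpd1 (5, 13 and 24 reads), against 0.399, 0.235 and 0.185 RPKM in WT (6, 3 and 3 reads). Its log2 fold change of 1.15 (95% interval -0.41 to 2.72) did not pass the threshold and was 0.71 without nrpd1 replicate 3, and nrpd1 replicate 1 lay within the WT range. Non-overlap in the downward direction in nrpd1 held for 5 of 8 genes, of which 4 were tested, against 3.54% of all tested features. The untested gene, AT5G39180, had 1 read both in its highest nrpd1 library (0.0611 RPKM) and in its lowest WT library (0.0665 RPKM). Its separation comes from library totals, and genes that share reads are not independent in this count.

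Among the 12 root markers, 2 also fell in nrpd1, against 0.591% of all features. COBL9 and EXPA7, both expressed in root hairs, had log2 fold changes of -2.58 (limma adjusted p = 2.64e-04) and -2.48 (0.0033). COBL9 had 0.176, 0.396 and 0.335 RPKM in nrpd1, against 2.30, 2.01 and 2.40 RPKM in WT, and EXPA7 averaged 1.09 RPKM in nrpd1 and 5.89 RPKM in WT. Of the other 10 root markers, WER lay above WT in nrpd1 without overlap and the rest overlapped. Among the latter was the root hair regulator RHD6, with means of 1.72 RPKM in nrpd1 and 2.00 RPKM in WT (log2 fold change -0.24). The 12 markers summed to 1374 to 1458 RPKM in nrpd1 and 1333 to 1715 RPKM in WT, and the 11 without PYK10 to 68.2 to 76.4 RPKM in nrpd1 and 64.1 to 73.7 RPKM in WT. The part of root hair RNA in the nrpd1 values of the cluster was not tested.

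The polymerase V mutant nrpe1 had the cluster at 80.8% of its WT sum, with wide spread between its libraries, which summed to 5.01, 5.68 and 9.97 RPKM. By limma 0 of 7 genes passed, against 0.435% of all features, 2 of 7 had an unadjusted p under 0.05, against 4% of all features, and voom on the recovered reads also called 0. AT5G39120 had 0.0906, 0.417 and 0.740 RPKM in nrpe1 (1, 2 and 9 reads), against 1.83, 1.38 and 1.47 RPKM in WT. All nrpe1 libraries lay below all WT libraries, which held for 1 of 8 genes, against 2.92% of features, but the log2 fold change of -1.92 (95% interval -3.29 to -0.55) did not pass the threshold. It was -1.32 without nrpe1 replicate 1, -2.04 without replicate 2 and -2.39 without replicate 3, and 0 genes passed in each of these fits.

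AT5G39190 had 2.05, 1.73 and 3.78 RPKM in nrpe1, with replicate 3 inside the WT range, and a log2 fold change of -0.68 (95% interval -1.36 to -0.01). AT5G39160 had 1.29, 0.470 and 1.30 RPKM in nrpe1, and its 3 libraries spanned the values of WT replicates 1 and 2. The sum of this pair was 3.34, 2.20 and 5.08 RPKM in nrpe1, or 69.3% of WT, with overlap. AT5G39110 had 1.35, 1.87 and 2.70 RPKM in nrpe1 (15, 9 and 33 reads), against 1.08, 1.67 and 0.539 RPKM in WT. Its log2 fold change of 0.86 (95% interval -0.63 to 2.35) did not pass and was 0.47 without WT replicate 3, and every nrpe1 library was above the highest pkl or nrpd1 library.

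The remaining genes were close to the detection limit in nrpe1. AT5G39130 had 0, 2 and 11 reads, AT5G39150 had 1, 3 and 3 reads, AT5G39180 had 1, 1 and 0 reads, and AT5G39100 had 1, 1 and 8 reads. AT5G39150 and AT5G39180 together had 9 reads in nrpe1 and 16 in WT. Replicate 3 of both RdDM mutants had the highest RPKM of its group for AT5G39100, AT5G39120 and AT5G39130. In WT, replicate 3 was highest for AT5G39100, lowest for AT5G39130 and between the others for AT5G39120.

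The difference between nrpd1 and nrpe1 uses none of the libraries that chose the genes, but its spread and the filter drew on all 12. AT5G39150 passed that filter only with its WT libraries, which helped to choose the genes, and it is counted below. By limma 0 of 7 genes passed, against 0.613% of all features, while 3 of 7 had an unadjusted p under 0.05, against 3.13% of all features, and voom called 0. AT5G39110 came nearest, with 0.242, 0 and 0.144 RPKM in nrpd1 against 1.35, 1.87 and 2.70 RPKM in nrpe1, a log2 fold change of -3.30 (SE 0.67, 95% interval -4.79 to -1.81, adjusted p = 0.0681), and it passed with a pseudocount of 1 (adjusted p = 0.0174). The pooled reads were 5 in nrpd1 and 57 in nrpe1, 16.4-fold lower in nrpd1 after scaling to library totals (95% exact interval 6.63 to 52.4). This interval covers counting error only and not the spread between libraries, which had 15, 9 and 33 reads in nrpe1. No nrpd1 library reached the lowest nrpe1 library for AT5G39110 or for AT5G39150, 2 of 8 genes against 3.01% of features. For AT5G39150 the highest nrpd1 value (0.0605 RPKM) and the lowest nrpe1 value (0.0759 RPKM) were 1 read each, set apart only by library totals. Without nrpe1 replicate 2, the shallowest library, AT5G39110 had a log2 fold change of -3.31 (limma adjusted p = 0.2685).

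The other genes with an unadjusted p under 0.05 were AT5G39120, with a log2 fold change of -1.47 (95% interval -2.84 to -0.10), and AT5G39150, with -1.24 (95% interval -2.22 to -0.26), or -0.76 without nrpe1 replicate 2. All 3 belong to the GLP6 branch, whose remaining tested gene, AT5G39100, had an interval of -2.32 to 0.40. In the GER2 branch the intervals were -0.63 to 0.72 for AT5G39190, -1.42 to 0.66 for AT5G39160 and -0.27 to 2.86 for AT5G39130. These 4 intervals span 0, and the branches were not tested against each other. COBL9 and EXPA7 differed in this comparison too, with log2 fold changes of -2.86 (limma adjusted p = 4.40e-04) and -2.43 (0.0059), and their part was again not tested.

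**Figure D4:**
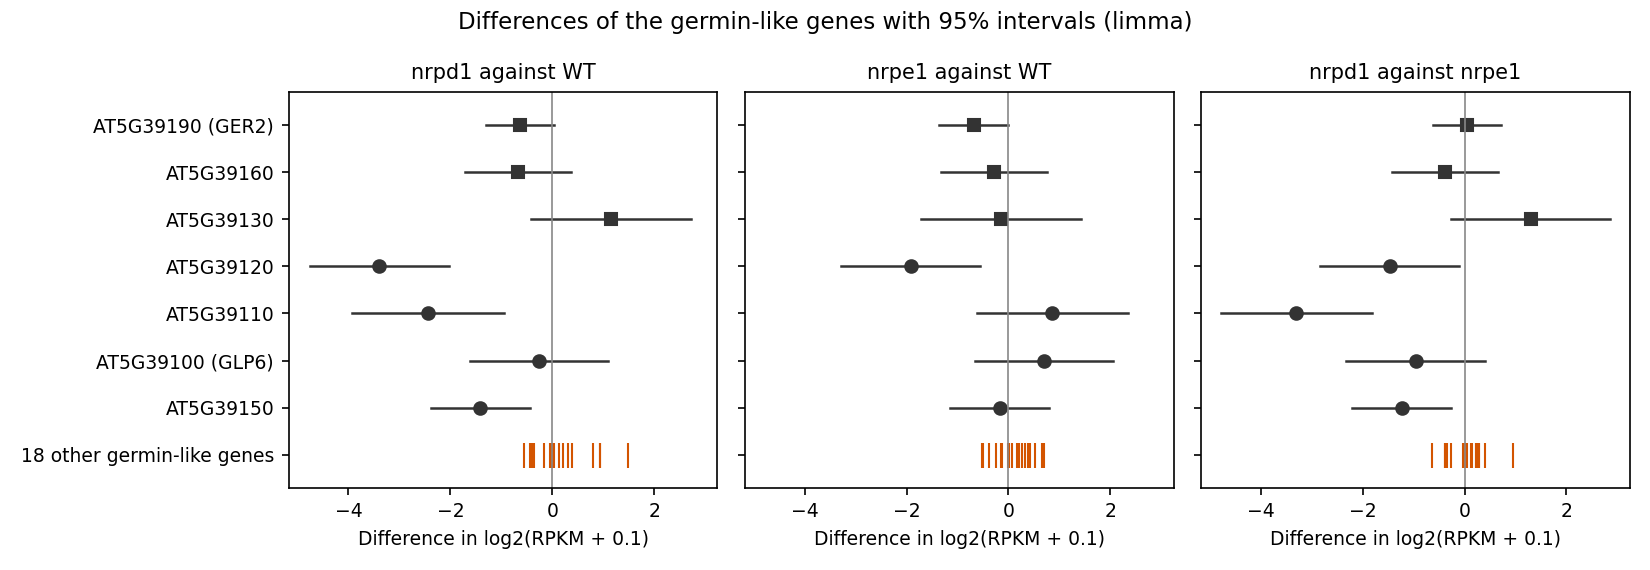
Differences in log2(RPKM + 0.1) for the 7 tested genes of the cluster (squares for the GER2 branch, circles for the GLP6 branch) with 95% intervals from limma, and, as ticks in the lowest row, for 18 other germin-like genes, in the 3 tested comparisons. AT5G39120 and AT5G39110 lie at -3.39 and -2.44 in nrpd1 against WT, and AT5G39110 at 0.86 in nrpe1 against WT.

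Among the other 24 germin-like genes listed by locus, 18 were tested and 0 passed in any of the 3 comparisons, with 1 of 18 at an unadjusted p under 0.05 in each and 0 called by voom. The median log2 fold change in nrpd1 against WT was -0.67 for the 7 tested cluster genes, 0.03 for these 18 genes and 0.04 for all features. In nrpe1 against WT the medians were -0.17 for the cluster, 0.11 for the 18 genes and 0.01 for all features, and in nrpd1 against nrpe1 they were -0.96, 0.13 and 0.03 in the same order. The cluster genes were chosen for WT values above those in pkl, and the 18 genes were not. Medians against WT are therefore not set side by side on equal terms, and no conclusion is drawn from them. In pkl against WT the 18 genes had a median of 0.20, against 0.07 for all features, with 0 called by limma or voom, against 1.9% of all features by limma, and 5 of 18 at an unadjusted p under 0.05, against 15.5% of all features.

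The family members with the highest levels were GER1 (AT1G72610), GER3 (AT5G20630) and GLP5 (AT1G09560). GER1 averaged 943 ± 132 RPKM in pkl, 795 ± 102 in nrpd1, 768 ± 79.3 in nrpe1 and 674 ± 271 in WT (SD, n = 3 each). GER3 averaged 699 ± 191 RPKM in pkl, 753 ± 251 in nrpd1, 676 ± 184 in nrpe1 and 658 ± 228 in WT. GLP5 averaged 107 ± 14.9 RPKM in pkl, 78.1 ± 8.0 in nrpd1, 102 ± 16.9 in nrpe1 and 80.7 ± 8.45 in WT.

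Of the other family members, 3 were past 2-fold in pkl without overlap, all in the upward direction, and none of them passed the adjusted threshold. The share of all features doing so is not given here, so this count is not read as a result about the family. AT3G05950 had 2.28, 2.22 and 0.787 RPKM in pkl, against 0.349, 0.577 and 0.129 RPKM in WT. AT4G14630 (GLP9) had 12.3, 14.2 and 14.3 RPKM in pkl, against 5.30, 6.26 and 2.75 RPKM in WT. AT5G61750 had 0.783, 0.662 and 0.495 RPKM in pkl, against 0.439, 0 and 0.163 RPKM in WT. Of the 24 listed genes, 0 lay below WT in pkl without overlap, against 7.64% of all tested features. The untested ones among the 24 had 0 reads in pkl and WT and could not do so. Above WT without overlap lay 6 of 24, the 3 just named included, and this count is not read as a result for the same reason.

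The family has other tandem groups. In the chromosome 5 group AT5G38910 to AT5G38960, AT5G38940 averaged 32.6 ± 0.934 RPKM in pkl and 28.3 ± 4.45 RPKM in WT, AT5G38930 averaged 5.49 ± 1.15 RPKM in pkl and 2.77 ± 0.0805 RPKM in WT, and AT5G38960 was at 0 in all libraries. AT5G38910 had its highest values in replicate 3 of nrpd1 (1.44 RPKM) and of nrpe1 (0.818 RPKM). In the chromosome 3 group AT3G04150 to AT3G04200, AT3G04200 reached at most 0.156 RPKM and the other 4 listed genes were at 0 in all 12 libraries.

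Genes within and beside the cluster were examined next. The 4 annotated loci between the germin-like genes, AT5G39140, AT5G39155, AT5G39170 and AT5G39185, had 0 reads in all libraries except 1 read of AT5G39170 in nrpd1. On one side the nearest tested genes were AT5G39090 (0.873 ± 0.459 RPKM in pkl and 1.57 ± 0.750 RPKM in WT), AT5G39080 (21.1 ± 2.51 RPKM in pkl and 17.8 ± 0.946 RPKM in WT) and PMAT1 (AT5G39050, 28.0 ± 1.5 RPKM in pkl and 26.3 ± 5.65 RPKM in WT). On the other side were CRR7 (AT5G39210, 49.7 ± 10.3 RPKM in pkl and 46.2 ± 10.5 RPKM in WT), AT5G39220 (0.966 ± 0.206 RPKM in pkl and 0.695 ± 0.185 RPKM in WT) and AT5G39230 (0.210 ± 0.120 RPKM in pkl and 0.169 ± 0.184 RPKM in WT). None of these 6 genes passed the limma threshold in pkl, nrpd1 or nrpe1 against WT, with log2 fold changes of -0.97 to 0.43.

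Across the 12 libraries, AT5G39190 followed the sum of the other 7 genes most closely (Pearson r = 0.91 on log2(RPKM + 0.1)), then AT5G39160 (0.83) and AT5G39150 (0.74), while AT5G39130 (0.40) and AT5G39100 (0.43) followed it least. These values describe libraries of 4 genotypes, and near-identical genes share reads. Of 22697 other genes, those most like the summed cluster were HSFA6B (r = 0.96), MLP28 (0.96), ECS1 (0.95), FMO GS-OX2 (0.95) and AT1G64300 (0.95). ECS1 averaged 50.3 ± 9.35 RPKM in pkl, 305 ± 72.0 in nrpd1, 299 ± 110 in nrpe1 and 340 ± 94.6 in WT. MLP28 averaged 60.0 ± 2.81 RPKM in pkl, 97.6 ± 9.37 in nrpd1, 108 ± 19.3 in nrpe1 and 133 ± 9.10 in WT. HSFA6B, a heat shock transcription factor, averaged 0.318 ± 0.0939 RPKM in pkl, 0.728 ± 0.182 in nrpd1, 1.21 ± 0.213 in nrpe1 and 1.11 ± 0.0939 in WT.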

How the data were processed

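Poly(A) RNA of 12 seedling libraries was sequenced from stranded paired-end libraries. Per the submitters' processing notes the tools were CASAVA 1.8, Trim Galore 0.4.0, Subread 1.5.1 and edgeR on the TAIR10 genome, with counting by featureCounts per the methods of the study. The treatment of strand and of reads with several positions in counting is not given in the sources used here. The authors deposited RPKM values for 64791 genes and transposable elements. Whole reads were recovered from the RPKM steps (99.993% whole within 0.01), and 1 read sets the precision of low values. RPKM divides by the library total, so abundant transcripts move all other values of a library.

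The 8 genes, the family list and the marker lists were chosen with earlier results of these data known. Genes were named by a rule written beforehand: all 8 genes, the highest and the pkl-shifted family members, the neighbours and the 5 genes of most similar pattern. Fits used limma 3.58.1 (R 4.3.3) with trend on log2(RPKM + 0.1), features of at least 0.1 RPKM in 3 of 12 libraries, all 4 genotypes and no block. They were tested on simulated data, with changes placed only in features with more reads than AT5G39120, AT5G39130, AT5G39150 or AT5G39100. How well changes in genes this low are found was therefore not tested. Same-numbered replicates deviated together (18 of 18 pairs with r over 0.1, from 0.15 to 0.60), and the numbers come from the sample titles, so a replicate block was tried. Other pseudocounts, filters, scalings, voom, 6-library fits and leaving out each replicate were tried as well. The sums over near-identical genes and over root markers without PYK10 were added after the data had been seen. Sequences were read from the RefSeq copy of TAIR10.1 and aligned with MAFFT 7.526 and blastn 2.17.0.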

Additional observations from a re-analysis of the deposited data

How the results depend on the processing

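In nrpd1 against WT, 1 gene of the cluster was called, and this count became 0 with a pseudocount of 0.01, with a filter at 1 RPKM and with only the 6 libraries of the comparison, and ranged from 0 to 1 when a replicate was left out. The call of AT5G39120 held in 6 of 14 alternatives and was lost in 8, with adjusted p values from 0.0036 to 0.1315 (limma). In nrpd1 against nrpe1 the count of 0 became 1 with a pseudocount of 1, where AT5G39110 had a log2 fold change of -1.38 (limma adjusted p = 0.0174), and over its alternatives that adjusted p reached 0.6138. In nrpe1 against WT the count stayed at 0 in every alternative run. Over all features, 449 were called in pkl against WT, 248 with a pseudocount of 1, 280 with only 6 libraries, 829 with the replicate block, and 265 to 377 without a replicate. The replicate block changed no call of a cluster gene in nrpd1 or nrpe1 against WT or in nrpd1 against nrpe1. The size of the fold changes depended on the pseudocount: that of AT5G39120 in nrpd1 against WT was -1.23 with 1 and -5.65 with 0.01, and that of AT5G39110 in pkl against WT was -0.71 and -3.08 in the same order. Median-ratio scaling shifted the median of all features by -0.08 to -0.02 on the log2 scale. Depth limits what can be seen, since 4 of the 8 genes had 12 reads or fewer in 3 WT libraries together, and near-identical copies share reads.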
